A study of Mus musculus with 6 samples.

Results

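The genes named for the C/EBP family (CCAAT/enhancer-binding proteins) were followed in the mouse mammary carcinoma line E0771, with either a vector control or wild-type Malt1. The members are the 5 genes Cebpa, Cebpb, Cebpd, Cebpg and Cebpz, chosen by name from the 55571 gene symbols of the count table. Of these 5, 4 had enough counts to be tested, and Cebpa is listed at 0. The study holds 3 libraries labelled vector control and 3 labelled Malt1-WT, and the labels name no stimulus for either group. Malt1 encodes a paracaspase that acts as scaffold and protease upstream of NF-kB. The comparison asks how the RNA of these genes differs between Malt1-WT and vector control. The labels name no promoter or clone for the construct, and do not say whether replicates were separate cultures, so the p-values measure only the spread between these libraries, which may be technical.

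C/EBP proteins bind DNA as dimers through a basic region followed by a leucine zipper (together called bZIP). C/EBPalpha is best known for driving adipocyte, liver and granulocyte differentiation, and C/EBPbeta and C/EBPdelta for the acute-phase and cytokine response. C/EBPgamma is a short member without a classical activation domain that pairs with other members and with ATF4. Cebpz carries the name for historical reasons: its product has no leucine zipper and is a nucleolar protein related to the yeast ribosome assembly factor Noc1. In the mammary gland, C/EBPbeta is known for its part in the growth and differentiation of the epithelium.

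The coding sequences are shown where members are most alike, since reads that fall wholly within an identical stretch could not be told apart. The longest identical run between any 2 of the 5 coding sequences was 29 bases, between Cebpa and Cebpb, in the part that encodes the basic region. Cebpb and Cebpd shared 27 bases there, Cebpa and Cebpd 14, and no pair with Cebpg or Cebpz shared more than 11. Reads were 150 bases long per the labels' protocols, longer than each of these runs. The sequences are from GENCODE M21 transcripts (GRCm38), 5′ to 3′, and capitals mark the run shared by each pair.
Cebpa, beside Cebpb: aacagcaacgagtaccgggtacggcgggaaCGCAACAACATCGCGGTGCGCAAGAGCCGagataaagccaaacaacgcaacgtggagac
Cebpb, beside Cebpa: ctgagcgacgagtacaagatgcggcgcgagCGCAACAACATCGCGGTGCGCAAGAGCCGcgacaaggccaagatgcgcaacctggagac
Cebpb, beside Cebpd: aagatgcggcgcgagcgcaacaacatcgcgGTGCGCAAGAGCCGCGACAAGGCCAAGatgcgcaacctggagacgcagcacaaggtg
Cebpd, beside Cebpb: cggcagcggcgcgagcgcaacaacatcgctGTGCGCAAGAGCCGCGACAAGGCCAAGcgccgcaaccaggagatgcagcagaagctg

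The members went in different directions in Malt1-WT. Cebpd fell 3.28-fold, Cebpg rose 1.44-fold and Cebpb rose 1.93-fold, the last with 1 Malt1-WT library far above the others. Cebpz had a log2 fold change of -0.08 and did not pass the test, and Cebpa is listed at 0 in all 6 libraries. A gene was called at an adjusted p under 0.05 in edgeR's quasi-likelihood test over all tested genes. Of the 4 tested members 3 were called, where 61.2% of all 13594 tested genes were called. Of the 4, 2 were called higher, against 31% of tested genes, and 1 was called lower, against 30.2%. With so few members, these counts say nothing particular about the family. By size of the log2 fold change, 5.37% of tested genes moved further than Cebpd, 14.2% further than Cebpb, 30.6% further than Cebpg and 84.9% further than Cebpz. In all 4 tested members the 3 libraries of one group lay above the 3 of the other, as they did in 64.4% of tested genes.

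Total counts ran from 17601656 to 20543778 per library. Malt1, the check of the labels, had 517, 633 and 611 counts in the vector libraries and 5526, 6176 and 5087 in the Malt1-WT libraries (log2 fold change 3.34). Levels below are CPM (counts relative to a fixed library size, scaled by TMM), as mean ± SD with n = 3 libraries per group. Of 10 leukocyte markers 4 were tested, Adgre1 only because its Malt1-WT counts passed the filter on low counts. Adgre1 (2, 1 and 0 counts in the vector libraries, 21, 32 and 28 in the Malt1-WT libraries), Cd68 (3.18-fold) and Coro1a (2.15-fold) were higher, and Fcer1g (-0.28 on the log2 scale) was lower. Of all tested genes 31% were called higher and 30.2% lower. Tyrobp was at 0 in every library, Ptprc had at most 3 counts, and the summed level of the list was 20.3 to 22.5 CPM in vector control and 29.5 to 32.3 CPM in Malt1-WT. Of 8 epithelial markers, Krt8 (68.6 ± 2.31 and 59.7 ± 1.83 CPM) and Epcam (6.31 ± 0.319 and 6.23 ± 1.01 CPM) were tested, while Krt5 was at 0 and Cdh1, Krt14, Krt18, Krt19 and Cldn4 had at most 9 counts in a library. The summed level of the epithelial list was 73.2 to 77.5 CPM in vector control and 64.5 to 69.9 CPM in Malt1-WT. The part of these differences in the values of the C/EBP genes was not tested, and a change in RNA per cell cannot be told apart from a change in the share of cells.

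**Figure D1:**
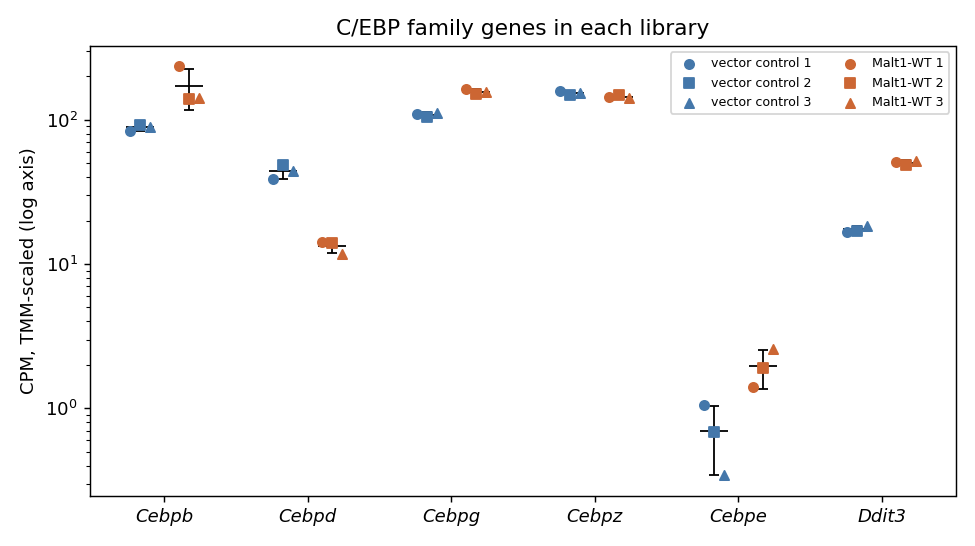
CPM (TMM-scaled, log axis) of the 4 tested members and of Cebpe and Ddit3 in each library, blue for vector control and orange for Malt1-WT, with the marker shape giving the replicate number and black bars the mean ± SD of 3 libraries. Cebpb in Malt1-WT replicate 1, at 234 CPM, stands above the other Malt1-WT libraries, at 138 and 141 CPM, and Cebpd is lower in all 3 Malt1-WT libraries than in any vector library.

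Cebpd had the largest change of the tested members. It encodes C/EBPdelta, a factor known to be induced by interleukin-6 and interleukin-1 in the acute-phase response. The gene lies on chromosome 16 (15887286 to 15891031, plus strand, GRCm38) and has a single exon. It had 38.9, 48.5 and 44.1 CPM in vector control replicates 1 to 3 and 14.2, 14.1 and 11.8 CPM in Malt1-WT replicates 1 to 3. All Malt1-WT libraries were below all vector libraries. The counts behind these values were 704, 987 and 886 for the vector libraries and 254, 282 and 201 for the Malt1-WT libraries. The Cebpd log2 fold change was -1.71 (SE 0.0813, adjusted p = 2.17e-24 by edgeR). It stayed between -1.80 and -1.64 over 13 alternative settings, all of which called it lower. Cebpd overlaps Spidr, a DNA repair scaffold gene on the opposite strand, by 562 bases of exons. The counting may not have used strand, a setting not given in the sources used here. Spidr was at 67.3 ± 4.55 CPM in vector control and 66.5 ± 2.79 CPM in Malt1-WT and did not pass (edgeR adjusted p = 0.801).

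Cebpb, which encodes C/EBPbeta, lies on chromosome 2 (167688915 to 167690418, plus strand) and also has a single exon. It had 84.0, 92.4 and 88.5 CPM in vector control and 234, 138 and 141 CPM in Malt1-WT replicates 1, 2 and 3. The groups did not overlap, but the highest Malt1-WT library, replicate 1, was at 1.69 times the lowest, against 1.10 times between the vector libraries. The Cebpb log2 fold change was 0.95 (SE 0.265, edgeR adjusted p = 0.0354). Without Malt1-WT replicate 1 it was 0.65, with an adjusted p of 1.1e-17. The call was lost on leaving out any 1 vector library (adjusted p = 0.0925 to 0.11) or Malt1-WT replicate 3 (0.0521), and with no filter on low counts (0.0796). In all, 6 of 13 alternatives lost the call, among them a fit with a replicate block. Over the 13 the value ranged from 0.65 to 1.08 and the adjusted p from 1.1e-17 to 0.11. DESeq2 called the gene higher (adjusted p = 0.00142), as did edgeR without its robust option, a setting added after the data were seen (adjusted p = 1.87e-12).

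The spread of Cebpb in Malt1-WT was examined after its values were seen. Each library's log2 CPM was set against the mean of the remaining libraries of its group, over 7872 genes whose log2 CPM averaged 4 or more. In Malt1-WT replicate 1, Cebpb deviated by 0.745, the most of all these genes and the only one beyond 1.5-fold. The next was Mt2, a gene of a metal-binding metallothionein, at 0.552, and the SD over genes was 0.0924. The other libraries had 0 to 5 genes beyond 1.5-fold. The Cebpb transcript has a GC content of 67.2%, and in the tenth of genes with the highest GC content (median 59%) the median deviation of this library was 0.0247. Tmem189, which overlaps Cebpb on the opposite strand by 312 bases of exons, was at 49.2, 54.4 and 52.2 CPM in vector control and 90.1, 83.8 and 86.4 CPM in Malt1-WT. It was higher in all 3 Malt1-WT libraries, and replicate 1 was close to the others. Tmem189 rose by 0.74 on the log2 scale (SE 0.0484, edgeR adjusted p = 5.29e-19).

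**Figure D2:**
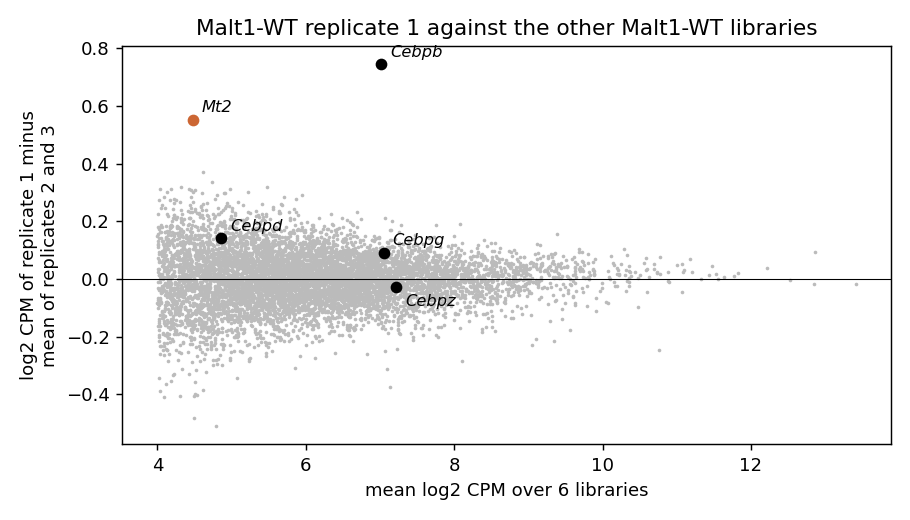
For each of 7872 genes with an average log2 CPM of 4 or more, the log2 CPM of Malt1-WT replicate 1 minus the mean of Malt1-WT replicates 2 and 3 (vertical axis) against the mean log2 CPM over 6 libraries (horizontal axis), with the tested members in black and Mt2 in orange. Cebpb, at 0.745, lies above all other points, Mt2 follows at 0.552, and Cebpd, Cebpg and Cebpz lie within the cloud.

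Cebpg, which encodes C/EBPgamma, lies on chromosome 7 (35046422 to 35056573, minus strand). It had 109, 105 and 112 CPM in vector control and 163, 150.2 and 156 CPM in Malt1-WT. All Malt1-WT libraries were above all vector libraries, and libraries within a group differed by at most 1.09 times. The Cebpg log2 fold change was 0.53 (SE 0.0386, edgeR adjusted p = 3.34e-17), and 13 alternatives gave 0.45 to 0.55, all called higher. Pepd, the nearest protein-coding gene at 1.71 kb and on the opposite strand, encodes a dipeptidase that releases proline. Pepd rose by 0.51 on the log2 scale, from 37.3 ± 2.22 to 53.0 ± 2.16 CPM.

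Cebpz lies on chromosome 17 (78919006 to 78937066, minus strand). It had 157, 149 and 152 CPM in vector control and 143, 149 and 142 CPM in Malt1-WT. The groups did not overlap, but Malt1-WT replicate 2 almost reached the lowest vector library. The Cebpz log2 fold change was -0.08 (SE 0.0362, edgeR adjusted p = 0.0515), just outside the threshold. It was called lower under upper quartile scaling (-0.098, adjusted p of 0.0167) and under scaling by library size alone (-0.16, adjusted p of 0.000203). It was also called lower on leaving out vector control replicate 2 (-0.10, 0.0274) or Malt1-WT replicate 2 (-0.11, 0.019). Over all alternatives the adjusted p went from 0.000203 to 0.156. Cebpzos, on the opposite strand with 171 bases of exonic overlap, was at 3.85 ± 0.333 and 3.43 ± 0.533 CPM and did not pass (edgeR adjusted p = 0.438). Ndufaf7, a mitochondrial complex I assembly gene 70 bases away, fell by 0.38 on the log2 scale.

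Cebpa, which encodes C/EBPalpha, lies on chromosome 7 (35119293 to 35121928, plus strand), 62.7 kb from Cebpg. Its count was 0 in each of the 6 libraries. By counting error alone, a count of 0 (for which 3 counts per library is the limit) allows a level of up to 0.147 to 0.175 CPM. In the same table Nfya, a subunit of the CCAAT-binding factor NF-Y that most cells express, is also at 0 in all 6 libraries, and the RNA-binding protein gene Celf1 has 3 counts in all. A listed 0 is therefore not read here as absence of the transcript, and no fold change was computed for Cebpa.

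**Figure D3:**
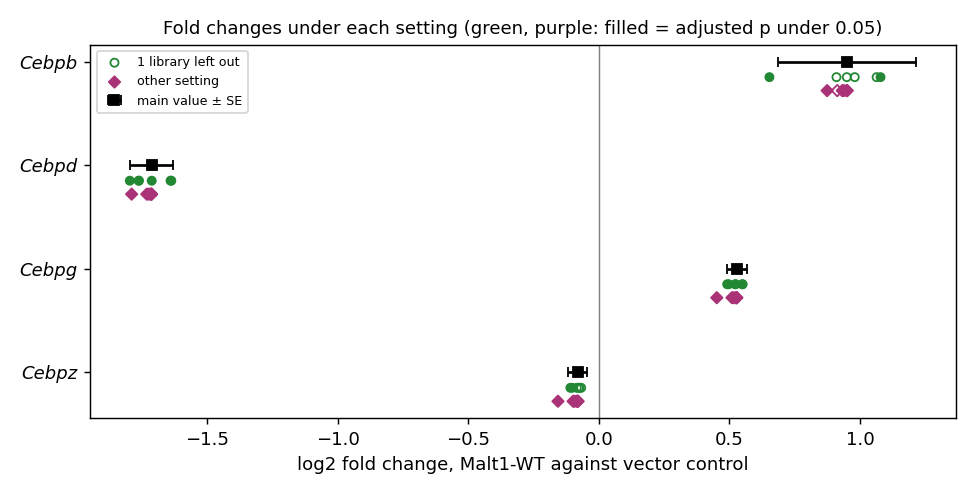
Log2 fold change of each tested member, Malt1-WT against vector control, as the main value ± SE (black) and under each alternative, green for a library left out and purple for another setting, filled where the adjusted p was under 0.05. Cebpd and Cebpg are filled throughout, while Cebpb, from 0.65 to 1.08, and Cebpz, from -0.16 to -0.067, hold filled and open symbols.

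The other bZIP genes of the family, Ddit3 and Cebpe, were both higher, as were 31% of all tested genes. Ddit3 encodes CHOP, a stress-induced member that pairs with other C/EBP proteins and alters their DNA binding. It had 16.8, 16.9 and 18.4 CPM in vector control and 51.2, 48.3 and 51.9 CPM in Malt1-WT, with no overlap (log2 fold change 1.54, SE 0.0675, edgeR adjusted p = 4.65e-26). Cebpe, known as a granulocyte factor, had 19, 14 and 7 counts in vector control and 25, 38 and 44 counts in Malt1-WT. The groups did not overlap, and the change was 2.83-fold (edgeR adjusted p = 2.25e-04) at a level of at most 2.57 CPM in a library. Cebpe passed the filter on low counts only with its Malt1-WT counts, so it could hardly have been called lower.

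Levels were compared between genes per kilobase of exonic length (CPM per kb), with lengths from GENCODE M21. In vector control Cebpb was highest at 58.7 ± 2.78 CPM per kb (SD, n = 3), followed by Cebpz at 32.8 ± 0.877, Cebpg at 19.3 ± 0.664, Cebpd at 11.7 ± 1.28, Ddit3 at 10.1 ± 0.528 and Cebpe at 0.56 ± 0.282. Cebpd and Ddit3 overlapped there, with 10.4 to 12.9 and 9.8 to 10.7 CPM per kb. In Malt1-WT Cebpb was at 114 ± 36.2 CPM per kb, Cebpz at 31 ± 0.79, Ddit3 at 29.5 ± 1.12, Cebpg at 27.8 ± 1.15, Cebpd at 3.56 ± 0.368 and Cebpe at 1.58 ± 0.475. Ddit3 and Cebpg overlapped in this group, with 28.2 to 30.3 and 26.7 to 29 CPM per kb. Within the summed per-length level of Cebpb, Cebpd, Cebpg, Cebpe and Ddit3, Cebpd held 11.6% ± 0.869 in vector control and 2.07% ± 0.375 in Malt1-WT. Cebpb held 58.5% ± 0.818 and 63.7% ± 6.28, the latter with 70.9% in replicate 1 and 60.4% and 59.7% in replicates 2 and 3. Ddit3 held 10.1% ± 0.523 and 17.2% ± 3.08. The annotated length can exceed the length of the transcripts these cells use.

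Ratios between members within a library do not depend on library scaling. Cebpb had 2.02 times the counts of Cebpd in vector control and 12.4 times in Malt1-WT. The log2 ratio of Cebpd to Cebpb was -1.11, -0.93 and -1.01 in the vector libraries and -4.04, -3.29 and -3.58 in the Malt1-WT libraries, a difference of -2.62. The log2 ratio of Cebpg to Cebpb was 0.37, 0.18 and 0.34 in the vector libraries and -0.52, 0.12 and 0.15 in the Malt1-WT libraries, so the groups stood apart by a narrow gap. The Cebpg to Cebpb log2 ratio differed by -0.38, and by -0.16 without Malt1-WT replicate 1. An exact two-sided permutation test gave p = 0.1 for each ratio, the smallest p that 3 against 3 libraries allow. With 1 library left out, p stayed at 0.1 for the Cebpd to Cebpb log2 ratio. For the Cebpg to Cebpb log2 ratio the exact p was then 0.1 to 0.4, with 0.3 to 0.4 on leaving out a vector library.

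The start regions of the members that rose are shown with some of the searched motifs marked. They hold 250 bases before to 50 after the annotated start, from RefSeq (GRCm38.p6), 5′ to 3′ on the gene's strand. Capitals mark TGACG (the half-site of the cyclic AMP response element), CCAAT and TATAAA, each searched on both strands.
Cebpb, chr2:167688665-167688964, plus strand: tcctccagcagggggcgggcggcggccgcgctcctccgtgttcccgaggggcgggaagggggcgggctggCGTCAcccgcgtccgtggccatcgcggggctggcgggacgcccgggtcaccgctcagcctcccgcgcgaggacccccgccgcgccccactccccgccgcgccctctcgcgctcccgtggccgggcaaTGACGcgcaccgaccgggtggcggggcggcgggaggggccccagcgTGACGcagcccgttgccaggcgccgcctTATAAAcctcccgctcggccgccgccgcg
Cebpg, chr7:35056517-35056816, minus strand: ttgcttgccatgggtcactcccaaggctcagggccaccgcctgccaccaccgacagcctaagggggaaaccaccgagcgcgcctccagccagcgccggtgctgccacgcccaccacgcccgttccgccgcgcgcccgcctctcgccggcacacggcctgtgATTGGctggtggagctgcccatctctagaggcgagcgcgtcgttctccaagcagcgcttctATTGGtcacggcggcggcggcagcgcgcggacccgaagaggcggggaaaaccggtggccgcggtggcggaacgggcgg

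The Cebpb window held TGACG 3 times and TATAAA once, and no CCAAT. This TATAAA begins at base 22 after the annotated start, not before it. The Cebpg window held CCAAT 2 times, and neither TGACG nor TATAAA. Among 32851 windows of the same length, 20.8% held TGACG, 37.4% CCAAT and 13.6% TATAAA. Neither window held the C/EBP motif TTGCNNAA (in 10.8% of windows), the STAT motif TTCNNNGAA (8.3%) or the C/EBP-ATF motif TGATGNAA (3.97%). These are matches of letters in 300 bases, not measured binding.

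The genes around the family were taken from lists of inputs, targets, partners and regulators. The lists were chosen with earlier results of these data known. Their counts beside the shares of all tested genes are therefore descriptive and do not test the lists. All tested genes together had a median log2 fold change of -0.00286. Some genes stand in more than 1 list, among them Il6, Ddit3, Trib3 and Cebpe.

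Interleukin-6 family signals act through gp130 and the transcription factor STAT3, a known inducer of Cebpb and Cebpd. Of 9 tested genes of this input, 8 were higher and 1, the receptor gene Il6ra, was lower (-0.58), where 31% of all tested genes were higher and 30.2% lower. The median over the list was 0.51 on the log2 scale. Jak1 passed narrowly (0.07, edgeR adjusted p = 0.042) with overlapping groups, and the count of called genes was 8 or 9 over the alternatives. The cytokine gene Lif went from 9.22 ± 0.564 to 160.5 ± 0.939 CPM (log2 fold change 4.12) and Il6 from 17.6 ± 1.31 to 182 ± 4.36 CPM (3.37). The kinase gene Jak2 rose by 1.91 and the feedback inhibitor gene Socs3 by 0.88 on the log2 scale. Cebpd was lower in the same libraries.

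Acute-phase and inflammatory genes known as C/EBPbeta or C/EBPdelta targets were higher in 16 of 18 tested cases, against 31% of all tested genes. Their median log2 fold change was 1.98. Il1b had 1, 1 and 2 counts in the vector libraries and 123, 120 and 120 in the Malt1-WT libraries (log2 fold change 6.47). It passed the filter on low counts only through its Malt1-WT counts, so it could not have been called lower. The neutrophil chemokine genes Cxcl2 (6.15) and Cxcl1 (4.25), the granulocyte growth factor gene Csf3 (5.60) and the nitric oxide synthase gene Nos2 (3.73) were next in size. The 2 lower members were the acute-phase glycoprotein gene Orm1 (-1.68) and the hyaluronan-binding protein gene Tnfaip6 (-0.82). Ptgs2 is listed at 0. Many of these genes are also known NF-kB targets, and which factor acts on them was not measured.

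Of 14 adipogenic and lipid genes tied to C/EBP factors 8 were tested, with 4 higher, 3 lower and 1 not passing (median log2 fold change 0.21). Of all tested genes 61.2% were called in either direction. The lipid-binding protein gene Fabp4 rose from 191 ± 10.4 to 418 ± 8.94 CPM (1.13), and Slc2a4, the insulin-responsive glucose transporter gene, from 0.810 ± 0.247 to 5.65 ± 0.339 CPM (2.78). The triglyceride synthesis gene Dgat2 had 0, 10 and 9 counts in the vector libraries and 37, 39 and 52 in the Malt1-WT libraries (2.83). Dgat2 passed the filter on low counts only through its Malt1-WT counts, so it could not have been called lower. The desaturase genes Scd1 (-1.02) and Scd2 (-0.65) and the fatty acid synthase gene Fasn (-0.66) fell. The adipocyte genes Adipoq and Cidec are listed at 0, and Pparg had 2 counts in all.

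Of 16 myeloid genes tied to C/EBP factors, 5 were tested. Cebpe was higher, the lysozyme gene Lyz2 (-2.33) and the protease gene Prtn3 (-1.48) were lower, and Csf1r and S100a8 did not pass. Of all tested genes 61.2% were called, 31% higher and 30.2% lower. Lyz2 (5, 19 and 17 counts in Malt1-WT) passed the filter on low counts only with its vector counts, and Cebpe only with its Malt1-WT counts. Lyz2 could therefore hardly have been called higher, and Cebpe hardly lower. The granulocyte genes Csf3r, Ltf and Ngp are listed at 0 in all 6 libraries. Camp, of the same list, had 1, 3 and 1 counts in vector control and 25, 10 and 15 in Malt1-WT, and was not tested. The remaining untested genes of the list had at most 4 counts in a library.

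The bZIP genes that pair with C/EBP proteins or resemble them were higher in 9 and lower in 3 of 12 tested cases, against 31% and 30.2% of all tested genes. Their median log2 fold change was 1.00. Batf2 (3.08), Fos (2.81), Ddit3 (1.54) and Junb (1.40) rose, as did Atf4, from 392 ± 9.25 to 835 ± 27.9 CPM (1.09). The lower members were the PAR-type genes Dbp (-1.17) and Tef (-0.38) and the CREB-related gene Atf2 (-0.15). The call on the Atf2 log2 fold change was lost on leaving out vector control replicate 3 (adjusted p of 0.0712) or Malt1-WT replicate 3 (0.085). Target genes of ATF4, the partner of C/EBPgamma, were higher in 12 of 13 tested cases, with Phgdh not passing (median 1.13), against 31% of all tested genes. Psat1 passed narrowly (0.07, edgeR adjusted p = 0.042), and the count was 11 or 12 over the alternatives. The cystine transporter gene Slc7a11 (2.67), Trib3 (1.88), Sesn2 (1.74), Ddit4 (1.69) and Chac1 (1.35) had the largest changes of these.

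Genes that act on C/EBP proteins were mixed, with 4 higher, 5 lower and 2 not passing among 11 tested (median log2 fold change -0.26), where 61.2% of all tested genes were called. The Tribbles genes encode scaffolds, of which TRIB1 and TRIB2 are known to send C/EBPalpha to degradation through the ligase COP1. Trib2 had 20, 45 and 29 counts in the vector libraries and 2, 1 and 1 in the Malt1-WT libraries (log2 fold change -4.34, SE 0.559, edgeR adjusted p = 2.24e-09). It passed the filter on low counts only through its vector counts, so it could not have been called higher. Trib1 fell by 0.58 on the log2 scale, and Trib3 rose by 1.88. Smarca2 (-0.79), a chromatin remodeller gene, was lower, and Rb1 (0.66), the retinoblastoma gene, was higher.

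Around Cebpz, 10 of 16 nucleolar ribosome assembly genes were lower, 1 was higher and 5 did not pass (median log2 fold change -0.14). The 11 called of 16 are near the 61.2% called among all tested genes. The 10 lower of 16 stand beside 30.2% called lower among all tested genes. The RNA acetyltransferase gene Nat10 (-0.47), Utp20 (-0.30), Noc2l (-0.25), the relative of yeast Noc2, and Nop58 (-0.25) were lower. Nop14 (0.09) was the 1 higher member, and 8 of 12 alternatives did not call the Nop14 log2 fold change, with an adjusted p of up to 0.837. Of 7 tested CCAAT-box and METTL3 genes 2 were higher, 3 lower and 2 not passing, also near the 61.2% called overall. Nfic fell by 0.43 and Ybx1 by 0.27, and Nfyb rose by 0.33 on the log2 scale. Of the 5 called, 3 were called with DESeq2 or without Malt1-WT replicate 3, where Mettl3 (0.19) and Nfyc (-0.16) did not pass.

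**Figure D4:**
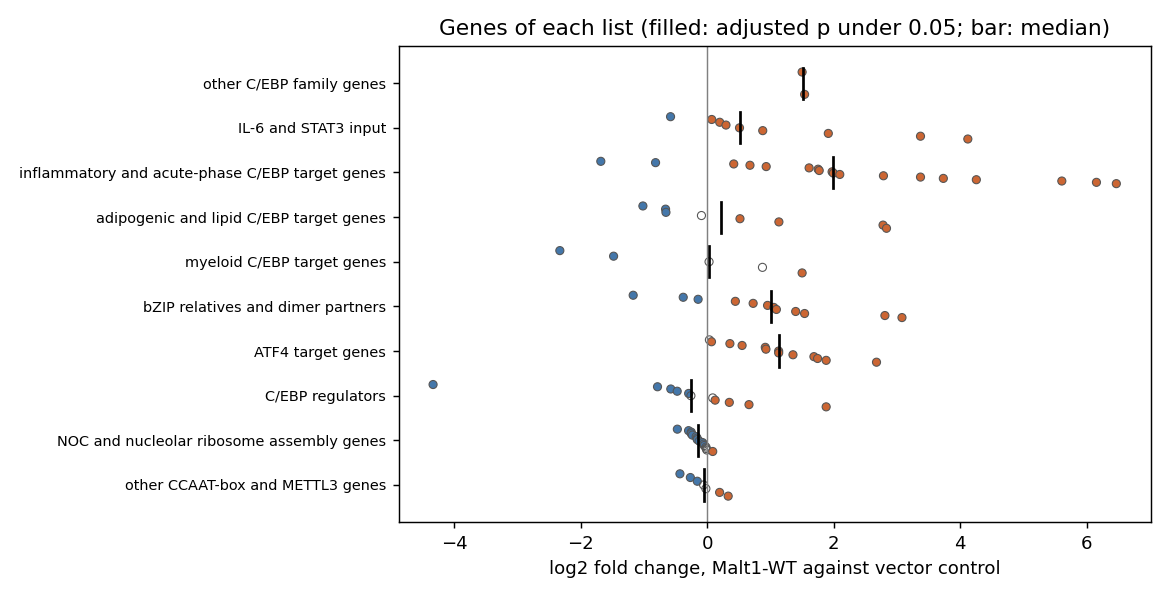
Log2 fold change (horizontal axis) of each tested gene in 10 lists around the C/EBP family (rows), filled orange for higher and blue for lower at an adjusted p under 0.05, open where not passing, with a black bar at the list median. The inflammatory targets, at a median of 1.98, lie mostly to the right, while the nucleolar genes, at -0.14, lie close to 0.

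The genes most like each member were taken by the Euclidean distance of log2 CPM, centred per gene, over the 6 libraries. Those nearest to Cebpb were Galr2 (distance 0.278), Gpr162 (0.365) and Mt2 (0.384). In Malt1-WT replicates 1, 2 and 3, Galr2 had 5.59, 4.09 and 3.74 CPM, Gpr162 10.9, 7.14 and 8.60 CPM and Mt2 39.7, 27.0 and 27.0 CPM, with replicate 1 highest in each. Nearest to Cebpd were the mitotic spindle gene Spag5 (0.208), the thymidine kinase gene Tk1 (0.22) and Apcdd1 (0.224). Spag5 went from 94.5 ± 2.43 to 28.2 ± 2.08 CPM. Nearest to Cebpg were Birc2 (0.0493), an inhibitor of apoptosis gene, Tdrd7 (0.0519) and Sos2 (0.0674). Birc2 went from 26.8 ± 0.756 to 38.2 ± 1.92 CPM. Nearest to Cebpz were Fbh1 (0.0335), Itpr2 (0.0355) and Plpbp (0.0379). With 2 groups, likeness over 6 libraries mostly reflects an equal fold change.

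In the authors' deposited table the log2 fold change is -1.72 for Cebpd, 0.89 for Cebpb, 0.51 for Cebpg and -0.09 for Cebpz. The adjusted p in the authors' deposited table is 0.0947 for Cebpd and 1 for Cebpb, Cebpg and Cebpz. The t score given there is -5.39 for Cebpd and exactly 0 for Cebpb, Cebpg and Cebpz, although their log2 fold changes are not 0. The authors' adjusted p-values therefore do not measure the same thing as the edgeR values above, and cannot be read as absence of a difference.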

How the data were processed

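RNA was isolated with RNAiso Plus and sequenced as paired reads of 150 bases from a directional NEBNext library, per the labels' protocols. The submitters' processing notes name STAR 2.7.3a, Trim Galore 0.6.0 and featureCounts 1.6.3, with the GRCm38.p6 (mm10) build. The annotation and strand setting of the counting: not given in the sources used here. The authors deposited raw counts per gene for 6 libraries. They also deposited, per the file headers, a log2 fold change and mean log2 expression, a t score, and p-values of their own comparison, made with a tool not given in the sources used here.

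Counts were analysed in R 4.3.3 with edgeR 4.0.16 (filterByExpr, minimum count 10; TMM; robust glmQLFit; glmQLFTest; Benjamini-Hochberg over 13594 genes, threshold 0.05). The SE is the size of the log2 fold change over the square root of F. Log2 CPM used a prior count of 2, and ratios a pseudocount of 0.5. Positions, exonic lengths, GC content and coding sequences came from GENCODE M21. RefSeq start regions were matched for Cebpa, Cebpb and Cebpg. All 6 libraries were kept, since pairs within a group gave a chi-square of 2.19 to 3.01 per degree of freedom. Alternatives were other scalings, no filter, DESeq2 1.42.0, a replicate block and each library left out, plus edgeR without the robust option, added after the data were seen. The code was tested on simulated data.

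The members and lists were chosen with earlier results of these data known. Named are the members, Malt1, Cebpe and Ddit3, neighbouring and overlapping genes, per list up to 5 called genes with the largest change and the minority direction where it holds 3 or fewer, and the 3 genes nearest to each member. Some other genes were named after their values were seen.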

Additional observations from a re-analysis of the deposited data

How the results depend on the processing

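Cebpd and Cebpg kept their direction and call under all 13 alternatives. The Cebpb log2 fold change kept its direction but was not called with no low-count filter (0.94) or with the replicate block (0.91, adjusted p of 0.0939), and it ranged from 0.65 to 1.08 with 1 library left out. The Cebpz log2 fold change was called under upper quartile scaling (-0.098) and library size only (-0.16), and ranged from -0.11 to -0.067 with 1 library left out. The cause was not tested. Among 10 lists, the count of called members moved by over 1.5 times for 1, the 7 tested CCAAT-box and METTL3 genes, from 5 to 3 with DESeq2 and to between 3 and 5 with 1 library left out. Library size only moved the share of higher genes among all called from 50.6% to 41.3%. No pairing by equal replicate number was seen. Same-numbered libraries correlated at -0.0414, -0.036 and 0.00723 in their deviations from the group means, and not every library correlated best with its own number. The labels do not say whether libraries were prepared in numbered pairs, and these correlations cannot show it. The replicate block called 8168 genes against 8320. For 72 other genes, 832 of 864 values kept direction and call, 26 lost it, 4 gained it and 2 changed sign. Those 2 were the Spidr log2 fold change, not called, without vector control replicate 1 (0.024) and without Malt1-WT replicate 2 (0.011), within a range of -0.070 to 0.024 with 1 library left out. The ratio of Cebpa to Cebpb was not computed, as Cebpa is listed at 0. Depth limits Cebpe, Lyz2, Trib2, Il1b, Dgat2 and Adgre1, which rest on few counts in at least 1 group.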

Other observations

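Some genes that many cell types express are listed at or near 0 in this table, which bears on Cebpa. Besides Nfya and Celf1, Oard1 is listed at 0 in all 6 libraries. The stress-induced bZIP gene Atf3 had 0, 0 and 0 counts in vector control and 4, 0 and 3 in Malt1-WT, while its relatives Atf4 and Atf5 rose by 1.09 and 0.95 on the log2 scale. The reason for these zeros was not tested.

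Nfil3, a bZIP repressor gene of the circadian output, went from 55.5 ± 2.86 to 75.6 ± 1.52 CPM in Malt1-WT (mean ± SD of 3 libraries per group), a log2 fold change of 0.44. Its PAR-type relatives Dbp and Tef, which bind similar DNA sites, fell by 1.17 and 0.38. All 3 were called by the edgeR quasi-likelihood test, where 61.2% of tested genes were called.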
